A study of Gallus gallus with 10 samples.

Results

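The genes described here mark macrophages and other myeloid cells, the phagocytes that the bone marrow and the embryo supply to tissues. They were chosen by symbol, as 35 names from the biology of these cells: surface receptors, lineage transcription factors, subunits of the NADPH oxidase, signalling enzymes, actin regulators and lysosomal proteins. Earlier results of these data were known at that choice, so counts over the set are descriptions. Of the 35 symbols, 29 were found by exact name among the 24355 genes of the deposited table, each in 1 row, and AIF1, CORO1A, LSP1, MPEG1, NCF1 and VAV1 were not. The expression filter, which asks that 5 or more of the 10 libraries reach 1 FPKM, passed 20 of the 29. The other 9 were too weakly expressed for the main test and are described by their values. FPKM are fragment counts scaled by transcript length and library size, so that levels of different genes can be set side by side per length.

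Macrophages live in the choroid, the pigmented vascular layer of the eye between retina and sclera, as well as in most other tissues. Their survival depends on the receptor CSF1R, their identity on the transcription factor PU.1 (encoded by SPI1), and their killing of microbes on an oxidase that makes superoxide. Many genes in the set are also used by lymphocytes: PTPRC, for example, encodes CD45, a phosphatase on the surface of leucocytes in general. From such knowledge 15 of the 35 were classed as mainly myeloid and 20 as shared by myeloid and lymphoid cells.

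The RNA came from choroids of normal domestic chicks (strain Domesticus), taken 15 days post hatch. PAPA-NONOate breaks down in solution and gives off nitric oxide, whose effects on choroidal gene expression were the question of the study. The treated group is 5 choroids with PAPA-NONOate (1.5 mM, 24 hours at 37 °C in 5% CO2), and the control group 5 choroids labelled as without it, with replicate numbers 2, 3, 4, 5 and 8 in both. The same incubation text stands with both groups, and the sources used here do not say how the controls were kept. All treated libraries carry the letter R and all controls the letter L, unexplained, so that what the letters mark and the treatment cannot be told apart. Nothing states that the replicates are separate animals, and p-values therefore measure the spread between these samples, which may be technical.

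Depth is unknown, since the table holds no counts, and no counting interval is given. Summed FPKM ran from 394900 in PAPA-NONOate replicate 2 to 605500 in control replicate 8, and correlations between libraries of 1 group from 0.930 to 0.978. Markers of the labelled tissue were present: 9 endothelial markers summed to 442.9 to 688 FPKM and 9 melanocyte markers to 40.0 to 498 FPKM over all libraries. The 6 markers of the neighbouring retinal pigment epithelium summed to 3.74 to 6.02 FPKM. As deposited, the median tested gene had a log2 fold change of -0.18 with PAPA-NONOate, and 842 genes were called lower and 219 higher. After median-ratio scaling of the libraries, which moves that median to 0.00, 731 were called lower and 798 higher.

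Of the tested myeloid genes, 8 fell with PAPA-NONOate and 12 did not pass. CYBB, the catalytic subunit of the phagocyte oxidase, fell to 23.3% of its control mean, PTPN6 to 39.1%, PTPRC to 45.1% and the scavenger receptor gene MARCO to 46.4%, whereas CYBA, the partner of CYBB in the same membrane complex, stood at 94.5% and did not pass. Calls were made at an adjusted p under 0.05 in limma, and of the 20 tested members 0 rose. Among all 11357 tested genes 7.41% were called lower and 1.93% higher. The same 8 members were those in which every treated library lay below every control, which held for 7.48% of tested genes. In all 29 members found, the treated mean lay below the control mean, as it did in 73.3% of all tested genes and in 63.9% of the 19269 genes above 0 in any library. After median-ratio scaling CYBA and CD83 had log2 fold changes above 0 (0.06 and 0.13). The tested members had a median log2 fold change of -0.58, against -0.18 for all tested genes. All 8 kept their call after median-ratio scaling, under which 6.44% of genes were called lower. Without PAPA-NONOate replicate 3 or without control replicate 8, 5 members were called lower. In bulk RNA such as this, fewer cells of a type and less RNA per cell cannot be told apart.

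**Figure D1:**
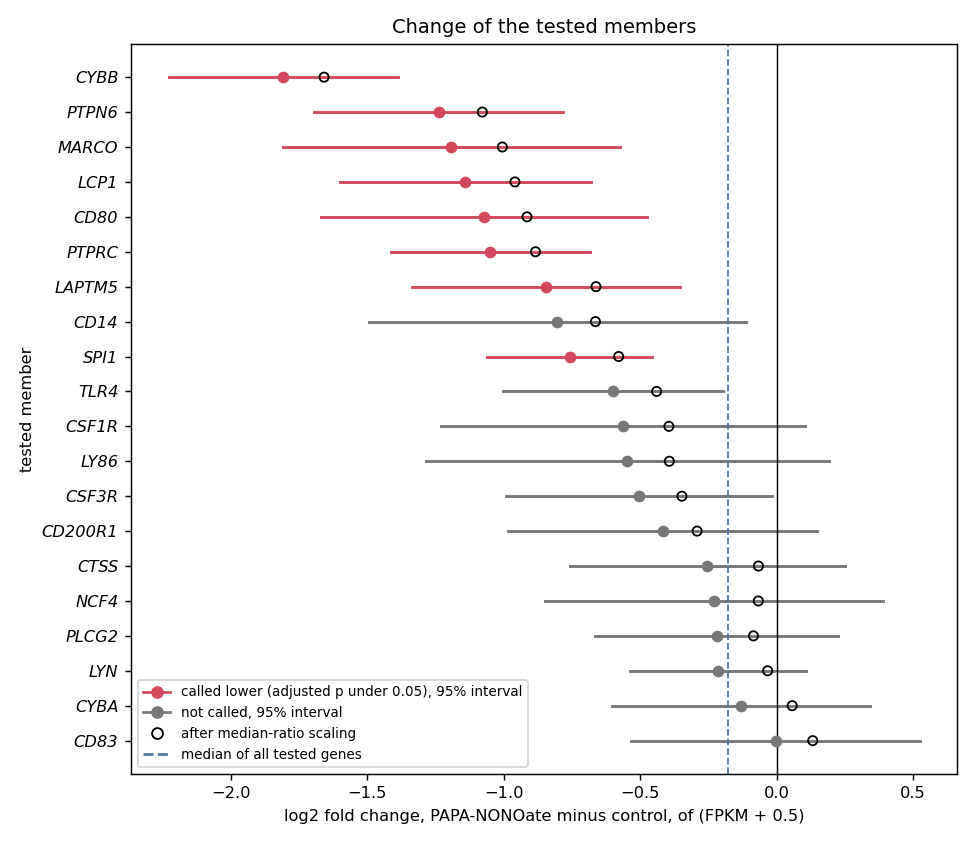
Log2 fold change of the 20 tested members (PAPA-NONOate minus control, on log2(FPKM + 0.5)), with filled points and 95% intervals as deposited and open circles after median-ratio scaling. The 8 members called lower are red and run from CYBB at -1.81 to SPI1 at -0.76, and the dashed line is the median of all tested genes at -0.18.

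The tested members did not pass the filter through the controls alone: each reached 1 FPKM in at least 3 treated libraries, and 14 of the 20 did so in all 10 libraries. Values of single libraries are given below in the order of replicates 2, 3, 4, 5 and 8. Fold changes are on the log2(FPKM + 0.5) scale, which understates changes of weakly expressed genes.

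Among receptors and surface proteins, 3 of 10 tested members fell, beside 7.41% of all tested genes. PTPRC (ENSGALG00000002192) was at 6.46, 5.42, 6.42, 7.65 and 7.105 FPKM in controls and at 2.06, 3.40, 2.61, 4.003 and 2.85 FPKM with PAPA-NONOate. The groups did not overlap, and the lowest value was that of treated replicate 2. The log2 fold change was -1.05 (SE 0.17, 95% interval -1.41 to -0.69, adjusted p = 0.0028).

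MARCO (ENSGALG00000012119), a scavenger receptor that takes up particles and bacteria, was the most highly expressed surface gene of the set. It was at 153, 183, 211, 184 and 282 FPKM in controls and at 41.05, 74.6, 123, 139.8 and 92.2 FPKM in treated choroids. Control replicate 8 was highest and treated replicate 2 lowest, and the closest values of the groups were 139.8 and 153. Its log2 fold change was -1.19 (SE 0.29, adjusted p = 0.0221), and it lost its call without PAPA-NONOate replicate 3 (adjusted p = 0.0528) or control replicate 8 (adjusted p = 0.0574), and with no expression filter (adjusted p = 0.058).

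CD80 (ENSGALG00000015474), a ligand on antigen-presenting cells that costimulates T cells through CD28, stood at 5.505, 7.99, 7.29, 6.52 and 7.825 FPKM in controls. In treated choroids it was at 1.07, 3.18, 4.82, 4.04 and 3.56 FPKM. Treated replicate 2 lay apart at the low end. The log2 fold change of -1.07 (SE 0.28, adjusted p = 0.0299) no longer passed after quantile normalization (adjusted p = 0.0631), nor when PAPA-NONOate replicate 3 or control replicate 3, 4, 5 or 8 was left out (adjusted p up to 0.0691), nor with no expression filter (adjusted p = 0.0753).

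CSF1R (ENSGALG00000005725), the receptor for CSF1 and IL34 on which macrophages depend, did not pass. It was at 4.985, 8.13, 10.8, 10.5 and 11.6 FPKM in controls and at 2.55, 4.59, 8.84, 8.21 and 7.503 FPKM in treated choroids. The groups overlapped, with the replicates numbered 2 and 3 at the low end of both. Its log2 fold change was -0.56 with a 95% interval of -1.23 to 0.10 (adjusted p = 0.252), which includes both no difference and a fall as large as that of PTPRC. CSF3R, the receptor for the granulocyte growth factor CSF3, likewise overlapped, at 1.59 to 4.26 FPKM with PAPA-NONOate and 3.37 to 4.99 FPKM in controls (log2 fold change -0.50, adjusted p = 0.164).

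The 2 receptors for bacterial lipopolysaccharide in the set, CD14 and TLR4, had lower means but did not pass. TLR4 was at 4.09, 4.02, 2.695, 4.24 and 3.75 FPKM in controls and at 2.31, 1.50, 3.20, 2.53 and 2.15 FPKM with PAPA-NONOate. Control replicate 4 fell within the treated range, and all other controls lay above it (log2 fold change -0.60, adjusted p = 0.0622). TLR4 passed with library weights (adjusted p = 0.0466) or without PAPA-NONOate replicate 4 (adjusted p = 0.0467). CD14 was nearly even among controls, at 3.78 to 4.39 FPKM, and uneven among treated libraries, at 0.510, 4.22, 2.13, 2.84 and 2.395 FPKM. Its log2 fold change of -0.80 (adjusted p = 0.124) became -0.46 without PAPA-NONOate replicate 2.

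The remaining tested surface genes did not pass either. LY86 (MD-1), the secreted partner of the receptor CD180, was at 1.06 to 6.13 FPKM in treated and 3.29 to 7.29 FPKM in control choroids (adjusted p = 0.313). CD200R1, an inhibitory receptor that restrains myeloid cells, was at 0.531 to 1.95 against 1.36 to 1.96 FPKM (adjusted p = 0.316). CD83, a marker of mature dendritic cells, was at 1.31 ± 0.406 FPKM with PAPA-NONOate and 1.32 ± 0.527 FPKM in controls (SD, n = 5). Its log2 fold change of 0.00 had a 95% interval of -0.53 to 0.53.

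SPI1 (ENSGALG00000008127) encodes PU.1, the transcription factor that drives many of the other genes of the set in mammals and birds. It was at 15.0, 15.9, 16.5, 15.15 and 18.4 FPKM in controls and at 7.46, 7.915, 11.2, 11.45 and 9.33 FPKM in treated choroids. The controls were close together and all above the treated libraries. The log2 fold change was -0.76 (SE 0.14, 95% interval -1.06 to -0.46, adjusted p = 0.00597), and its call held in all 23 alternatives.

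Of the 3 tested subunits of the NADPH oxidase 1 was called lower, and the differences between them were not tested. CYBB (ENSGALG00000016261), the subunit gp91phox that carries the electrons across the membrane, was at 6.83, 6.87, 5.59, 4.96 and 6.08 FPKM in controls and at 0.769, 1.92, 1.22, 1.87 and 1.29 FPKM in treated choroids. Even the highest treated library had less than the lowest control by a wide margin. With a log2 fold change of -1.81 (SE 0.19, 95% interval -2.23 to -1.39, adjusted p = 0.000296) it had the largest fall among the tested members, and its call held in the 22 alternatives in which it could be tested, with log2 fold changes of -2.08 to -1.57.

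CYBA (ENSGALG00000029367) encodes p22phox, the subunit that stabilises gp91phox and also serves other NADPH oxidases outside leucocytes. It stood at 114, 90.95, 123, 97.9 and 139 FPKM in controls and at 58.2, 109.8, 150.5, 117.5 and 97.8 FPKM with PAPA-NONOate. The ranges overlapped widely and the treated group held both the lowest and the highest library. Its log2 fold change was -0.13 (95% interval -0.60 to 0.34, adjusted p = 0.729) and was 0.06 after median-ratio scaling. Per length CYBA was many times as abundant as CYBB, with control means of 113 and 6.07 FPKM.

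NCF4, the cytosolic subunit p40phox, did not pass (log2 fold change -0.23, 95% interval -0.85 to 0.39) and was at 4.42, 2.085, 2.14, 0.857 and 2.295 FPKM in treated choroids. Here treated replicate 2 was the highest of all libraries, the reverse of its place in most members. The name NCF1 was not found. A row named NCF1C, for which RefSeq lists NCF1 as a synonym, was at 1.14 to 1.98 FPKM in treated and 1.603 to 6.01 FPKM in control choroids (log2 fold change -0.94, adjusted p = 0.0701). Likewise a row named LSP1P1, with the synonym LSP1, was at 34.4 to 65.9 against 54.5 to 77.95 FPKM (log2 fold change -0.35, adjusted p = 0.227). Whether these rows are the members was not tested.

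**Figure D2:**
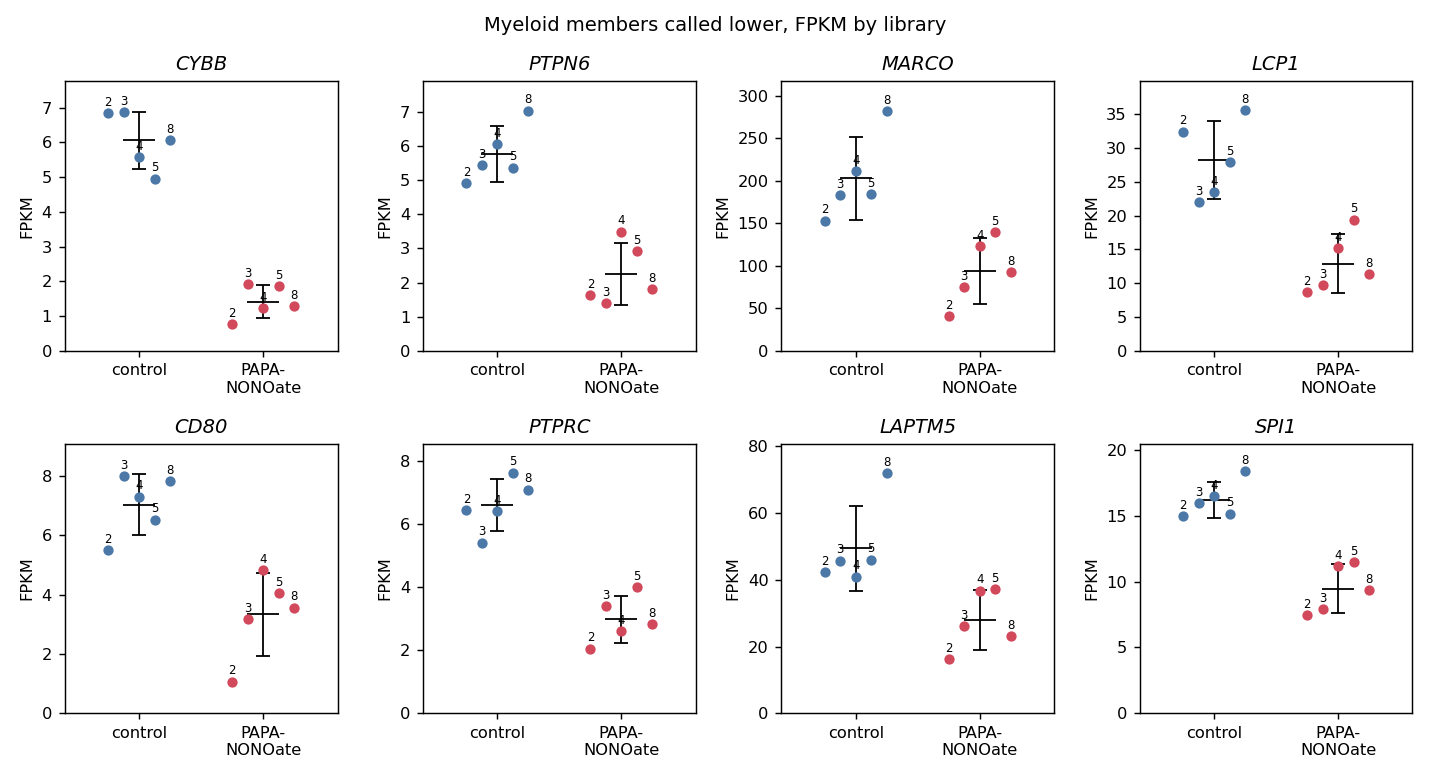
FPKM of the 8 members called lower, by library. Points are libraries with their replicate number, and bars are the mean ± SD of 5. In each panel all treated libraries lie below all controls, for CYBB at 0.769 to 1.92 against 4.96 to 6.87 FPKM, and the vertical axes start at 0.

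Of the signalling enzymes below these receptors, 1 of 3 tested members fell, beside 7.41% of all tested genes. PTPN6 (ENSGALG00000014561) encodes SHP-1, a phosphatase that inhibits signals in blood cells. It was at 4.92, 5.45, 6.06, 5.37 and 7.04 FPKM in controls and at 1.64, 1.39, 3.49, 2.93 and 1.81 FPKM in treated choroids. The groups were well apart, and the log2 fold change was -1.24 (SE 0.21, adjusted p = 0.00396). Its call held in all 22 alternatives in which it was tested.

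LYN, a Src family kinase that also occurs outside blood cells, was at 20.35, 23.9, 21.4, 21.4 and 27.5 FPKM in controls and at 14.75, 18.6, 25.9, 19.5 and 20.55 FPKM in treated choroids. The groups overlapped, and the log2 fold change of -0.22 (95% interval -0.54 to 0.11) lay near the median of all genes. PLCG2, the phospholipase that acts after SYK and BTK, also overlapped, at 0.858 to 1.46 against 1.004 to 2.06 FPKM (log2 fold change -0.22, adjusted p = 0.511).

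The one actin regulator tested was LCP1 (ENSGALG00000016986), or L-plastin, which bundles actin filaments in leucocytes. It was at 32.5, 22.03, 23.5, 28.0 and 35.6 FPKM in controls and at 8.73, 9.76, 15.2, 19.4 and 11.4 FPKM with PAPA-NONOate. All treated libraries were lower, with replicate 5 closest to the controls. The log2 fold change was -1.14 (SE 0.21, 95% interval -1.60 to -0.68, adjusted p = 0.006), and its call held in all 23 alternatives.

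Of the 2 lysosomal members LAPTM5 was called lower and CTSS was not, and the difference between them was not tested. LAPTM5 (ENSGALG00000038636), a lysosomal membrane protein of blood cells, was at 42.4, 45.7, 40.95, 46.05 and 71.9 FPKM in controls and at 16.25, 26.1, 36.7, 37.3 and 23.1 FPKM in treated choroids. Control replicate 8 lay above the other controls, and the gap between the groups was narrow. The log2 fold change was -0.85 (SE 0.23, adjusted p = 0.0355), and the call was lost with no expression filter (adjusted p = 0.0769), and without any of PAPA-NONOate replicates 2, 3 and 8 or any of the controls (adjusted p up to 0.0812). CTSS, the protease cathepsin S that prepares class II molecules for antigen, was at 108, 99.3, 107.6, 75.0 and 122.5 FPKM in controls. With PAPA-NONOate it was at 53.0, 80.2, 148, 96.1 and 72.7 FPKM. Treated replicate 4 had the highest value of all libraries, and the log2 fold change was -0.25 (95% interval -0.76 to 0.25, adjusted p = 0.502).

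The 9 members under the filter were BTK, RAC2, ARHGAP15, INPP5D, IKZF1, TIMD4, DOCK2, SYK and DOCK8, with control means of 0.153 to 1.15 FPKM. All but TIMD4 are shared with lymphocytes. In 6 of the 9 every treated library lay below every control, while this held for 2.15% of the 7912 genes that were above 0 and under the filter. That pool takes any gene above 0 in any library, and a gene at 0 in any control cannot separate so. The share is therefore not one of genes at the level of these members. Fitted without a filter, over 19269 genes of which 2.98% were called lower, 5 of the 9 passed. In that fit MARCO, CD80 and LAPTM5 did not pass (adjusted p = 0.058, 0.0753 and 0.0769), so that 5 of the 8 members called with the filter were also called without it. How many fragments lie behind these values is unknown, and at such levels the log2(FPKM + 0.5) scale understates fold changes. Every treated library also had fewer genes at 1 FPKM or more (10973 to 11184) than every control (11318 to 11514). The part of this difference in the values of the weakly expressed members was not tested.

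ARHGAP15, which switches off the GTPase RAC, stood out. It was at 0.919, 0.707, 0.864, 1.084 and 1.96 FPKM in controls and at 0.0595, 0.185, 0.230, 0.167 and 0.207 FPKM in treated choroids. The treated mean was 15.3% of the control mean, with adjusted p = 0.00768 without a filter. DOCK2, which switches RAC on in leucocytes, was at 0.372 to 0.819 FPKM in controls and at 0.0932 to 0.304 FPKM in treated choroids (adjusted p = 0.0118 without a filter). RAC2 itself, the GTPase of the oxidase in leucocytes, was at 0.709 to 1.77 against 0.0608 to 0.608 FPKM and did not pass (adjusted p = 0.0709 without a filter), although the groups did not overlap.

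IKZF1 encodes Ikaros, a transcription factor of lymphoid and myeloid development. It was at 0.981, 0.849, 0.737, 1 and 0.65 FPKM in controls and at 0.107, 0.0613, 0.356, 0.428 and 0.292 FPKM with PAPA-NONOate, without overlap (adjusted p = 0.0182 without a filter). BTK, a kinase of B cells and myeloid cells, was at 0.823 to 1.37 against 0.414 to 0.775 FPKM. INPP5D, the phosphatase SHIP1, was at 0.745 to 1.24 against 0.188 to 0.586 FPKM. Their adjusted p-values without a filter were 0.0364 and 0.0416.

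SYK, the kinase that starts signals from Fc and C-type lectin receptors, was at 0.0728 to 0.316 FPKM in treated and 0.158 to 0.377 FPKM in control choroids. DOCK8, an activator of the GTPase CDC42, was at 0.0144 to 0.112 against 0.0902 to 0.215 FPKM. Both overlapped between the groups and did not pass (adjusted p = 0.327 and 0.142 without a filter). TIMD4, a receptor by which resident macrophages bind dying cells, was listed at 0 in treated replicate 2 and was at 0.0788, 0.854, 0.283 and 0.171 FPKM in the other treated libraries, against 0.322 to 1.04 FPKM in controls.

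**Figure D3:**
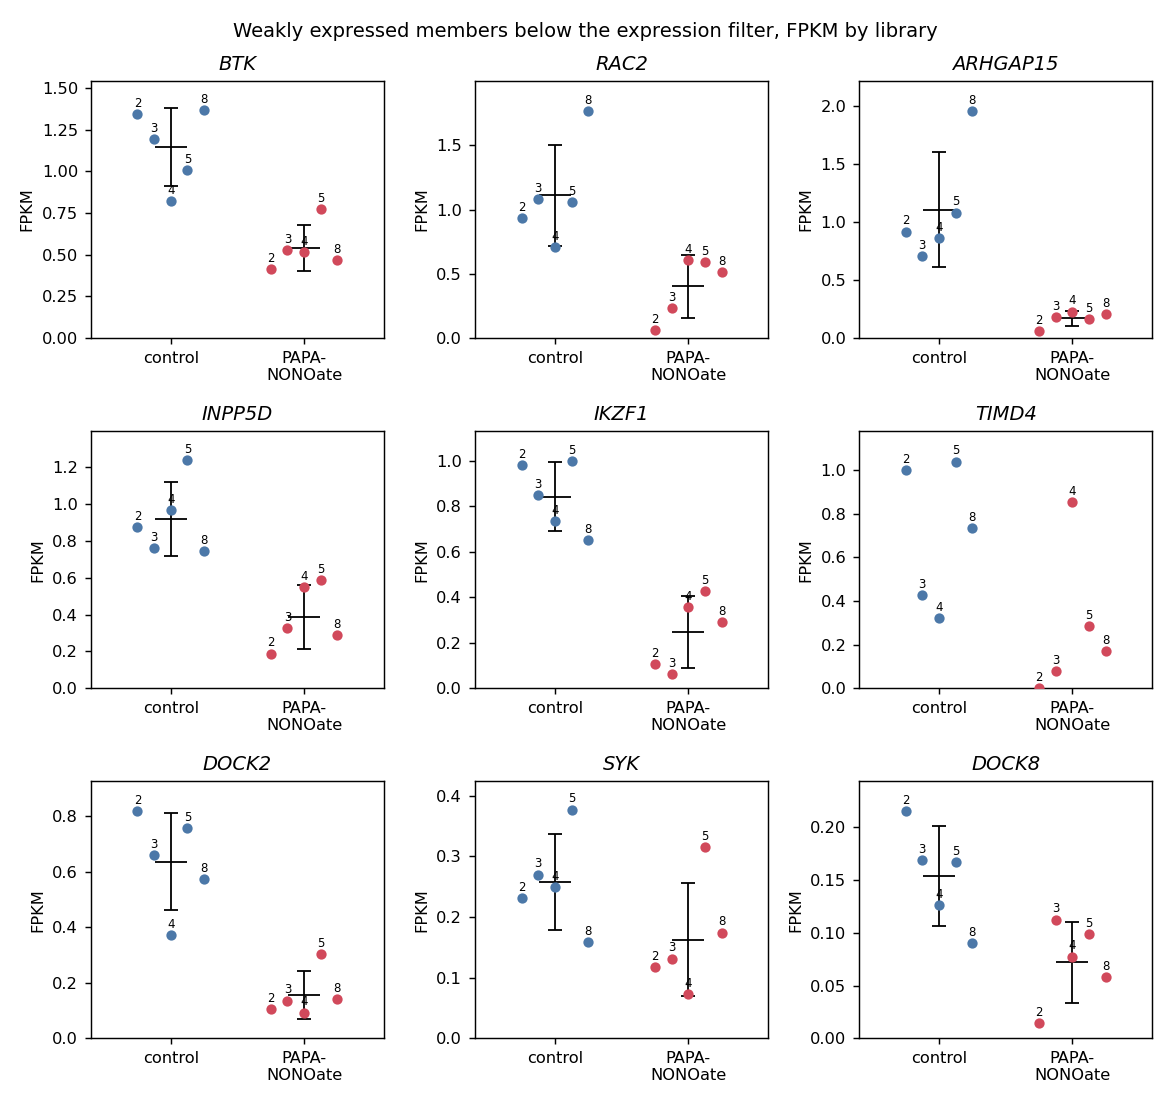
FPKM of the 9 members under the expression filter, by library. Points are libraries with their replicate number and bars the mean ± SD of 5, left out for TIMD4, which is listed at 0 in 1 library. In ARHGAP15, DOCK2, RAC2, IKZF1, BTK and INPP5D the groups do not overlap, while in SYK, DOCK8 and TIMD4 they do.

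Among the 20 tested members, 16 (80%) were lowest in PAPA-NONOate replicate 2 of the 5 treated libraries, and so were 64.4% of all tested genes. Treated replicates 4 and 5 were highest for 9 and 6 members, and replicate 8 for 0. Over these members the median deviation from each gene's own mean (log2) was -0.92, -0.47, 0.04, 0.00 and -0.36 in treated replicates 2, 3, 4, 5 and 8. In controls it ran from 0.25 in replicates 2 and 3 to 0.48 in replicate 8. Treated replicate 2 also had the lowest summed FPKM over all genes, and control replicate 8 the highest. Their part in the order of the members was not tested. Without PAPA-NONOate replicate 2, 7 of the 8 called members kept their call, all but LAPTM5, and the median of the members relative to all genes was -0.35, against -0.40 with it.

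**Figure D4:**
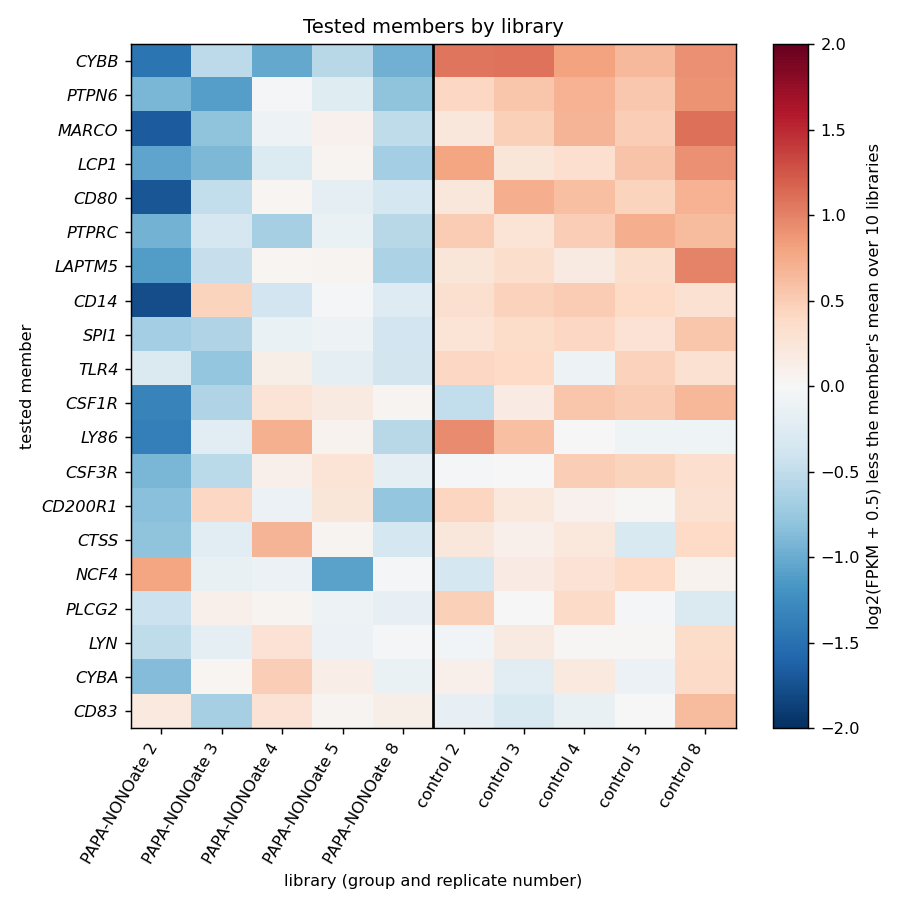
Deviation of each tested member's log2(FPKM + 0.5) from its own mean over the 10 libraries, with members ordered by fold change from CYBB to CD83. Treated libraries are left of the line and controls right. PAPA-NONOate replicate 2 is the darkest blue column, with a median of -0.92, while replicates 4 and 5 lie near the mean.

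Members that are mainly myeloid and members shared with lymphocytes were counted apart. Of 11 tested mainly myeloid members 3 fell (CYBB, SPI1 and MARCO), with a median log2 fold change of -0.56. Of 9 tested shared members 5 fell (PTPRC, PTPN6, LCP1, CD80 and LAPTM5), with a median of -0.85. Both medians lay below the -0.18 of all genes, and the difference between them was not tested. Of all tested genes 7.41% were called lower.

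To see which members changed by a different amount from PTPRC, the common leucocyte gene, all genes were also fitted as log2 ratios to PTPRC, a comparison chosen after the values were seen. Relative to PTPRC, 86.2% of all genes were called higher and 0.652% lower, so that a gene is set against a reference that itself fell. Being called higher was thus the outcome of most genes. With so many called, adjustment changed p-values little, for CYBB from 0.00174 to 0.00273 in limma. The p-values of this comparison are descriptions. CYBB was lower relative to PTPRC by a log2 difference of -0.76 (95% interval -1.20 to -0.32, adjusted p = 0.00273 in limma). MARCO, LCP1, CD80, PTPN6, LAPTM5 and SPI1 did not differ detectably from it, with differences of -0.19 to 0.29 and intervals reaching from -0.69 to 0.66. CYBA (0.92), LYN (0.83), PLCG2 (0.83), CTSS (0.80), CD83 (1.04), NCF4 (0.82), CD200R1 (0.63) and CSF3R (0.55) were higher relative to PTPRC, with adjusted p-values of 0.000431 to 0.0371. CSF1R did not differ detectably from PTPRC either, with a difference of 0.49 (95% interval -0.06 to 1.03, adjusted p = 0.0845). Nor did LY86 (0.50), TLR4 (0.45) and CD14 (0.25), with intervals reaching from -0.30 to 1.16 and adjusted p-values of 0.094 to 0.373.

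Other genes of macrophages, a list of 63 symbols none of which is a member, were counted in the same way. Earlier results of these data were known when the list was chosen, so its counts are descriptions and no independent check on the members. Of 41 tested genes of this list 16 fell, 1 rose and 24 did not pass, with a median log2 fold change of -0.74. Among all tested genes 7.41% were called lower and 1.93% higher. The smallest adjusted p-values belonged to CD36, a receptor for fatty acids and oxidised lipids (-2.44, adjusted p = 3.01e-05), the tetraspanin gene CD9 (-1.63), and ITGB2, the beta chain of leucocyte integrins (-1.42, adjusted p = 0.00284). HCLS1, a cortactin-like actin regulator of blood cells (-1.29), the complement gene C1QB (-1.48), PIK3R5 (-0.85) and the Toll-like receptor gene TLR15 (-0.94, adjusted p = 0.0207) followed. CD36 and CD9 are also expressed in cells other than macrophages, and ITGB2 and HCLS1 are genes of leucocytes or blood cells more widely. Unlike the members, this list was not divided into mainly myeloid and shared genes. The gene that rose, named after its value was seen, was CSF1, the ligand of CSF1R: it was at 34.4 ± 3.35 FPKM with PAPA-NONOate and 24.4 ± 4.21 FPKM in controls (SD, n = 5). On the log2 scale it was higher by 0.50 (SE 0.13, adjusted p = 0.0361 in limma). Of 23 tested lysosomal enzymes and membrane proteins, which other cells share, 4 fell (HEXA, SCARB2, CTSA and CTSK) and 0 rose, with a median of -0.39.

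Markers of other cells moved in the same comparison, and their part in the members' values was not tested. Of 12 T cell markers found, 4 were tested and 2 fell, the CD3 chains CD3D (log2 fold change -1.29) and CD3E (-1.34). Of all tested genes 7.41% were called lower. All T cell markers under the filter had lower treated means, as had 63.9% of the 19269 genes above 0 in any library. That pool also holds the tested genes, of which 73.3% had lower treated means, so its share is not one of genes under the filter. Treated and control means were 0.129 and 1.33 FPKM for CD8A and 0.147 and 0.514 FPKM for CD4. They were 0.5155 and 1.065 FPKM for LCK and 0.0596 and 0.0648 FPKM for TRAT1. The summed T cell markers were at 22.1 to 38.0 FPKM in treated and 36.2 to 52.7 FPKM in control choroids, most of it from GATA3 and CD247, which did not pass. Of 10 B cell and plasma cell markers found, 4 were tested and JCHAIN, the chain that joins polymeric antibodies, fell (-1.59, adjusted p = 0.0177). Their sums were 9.91 to 21.2 against 17.3 to 29.7 FPKM. The defining B cell genes CD79B and PAX5 had means under 0.3 FPKM in both groups, and TNFRSF13C was listed at 0 throughout.

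Heterophils, the avian granulocytes, were hardly marked by the genes found, while S100A9, MPO, AvBD2 and AvBD7 were not found by name. CATHL3 was listed at 0 in all libraries, and the means of CATHL1, CATHL2, CATHB1 and AvBD1 were under 1 FPKM in both groups. CATHL2 had a treated mean of 0 and reached 2.91 FPKM among controls. The sum of the 7 markers found (1476 to 8120 FPKM in treated, 3592 to 7873 FPKM in control choroids) came almost wholly from EXFABP, a lipocalin that other cells also secrete. It did not pass (adjusted p = 0.573).

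Among cells that are not leucocytes, 3 of 10 fibroblast markers fell (LUM, DCN and COL3A1), with a median log2 fold change of -1.08. Their sum was 299 to 1081 FPKM with PAPA-NONOate and 987 to 1949 FPKM in controls. Of 13 tested cell cycle genes 12 fell, with a median of -1.48, and RRM2 (-2.62), CDK1 (-2.59), KIF11 (-1.81) and MCM3 (-1.64) had the smallest adjusted p-values. Of 9 endothelial markers 1 fell (TEK), with a median of 0.03, and of 7 tested melanocyte markers 0 fell, with a median of -1.16. Smooth muscle markers had a median of -0.10, with 2 of 8 lower (RGS5 and SMTN) and 1 higher (CNN1). Thrombocyte markers had a median of 0.05, with 2 of 7 lower (F13A1 and ITGA2B) and 1 higher (THBS1), erythrocyte markers one of 0.73 with 0 of 5 called, and 1 of 2 tested pigment epithelium markers fell (LRAT). Among all 11357 tested genes 7.41% were called lower and 1.93% higher. F13A1 and KIF11 passed the expression filter through the controls alone, with treated means of 0.336 and 0.668 FPKM. CNN1 passed it through the treated libraries alone, with a control mean of 0.646 FPKM. For these genes the filter itself favoured the direction called. The differences between these lists and the members were not tested.

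**Figure D5:**
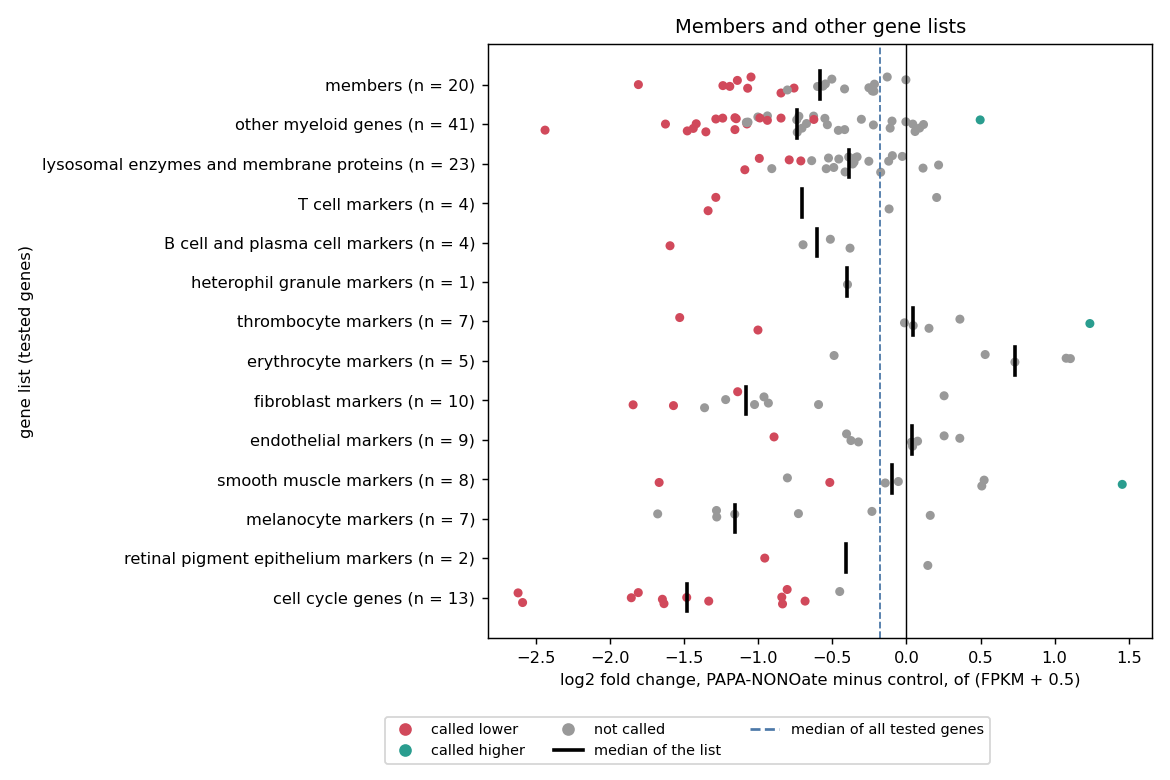
Log2 fold change of each tested gene (PAPA-NONOate minus control, on log2(FPKM + 0.5)) in the members and in 13 other lists. Bars are medians of the lists, at -0.58 for the members, -0.74 for other myeloid genes and 0.03 for endothelial markers, and the dashed line is the median of all tested genes at -0.18.

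Over the 10 libraries, the named genes whose log2 values followed those of CSF1R most closely were CHIR-AB1, F5, TFG, CSF3R, PCDH1 and NRROS, with Pearson correlations of 0.949 to 0.926. CHIR-AB1 is a chicken receptor for the antibody IgY, CSF3R is a member, and NRROS encodes a protein of myeloid cells that binds latent TGF-beta. The other genes, F5, TFG and PCDH1, are not classed here as myeloid. These are descriptions among 9346 named genes. The 2 groups, which both genes of a pair share, and the libraries' totals enter such correlations.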

How the data were processed

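The authors deposited 1 table of FPKM for 10 libraries of poly(A)-selected chick choroid RNA, made with directional kits from 100 ng of RNA, per the labels' protocols. Cufflinks, SAMtools and the build GRCg6a are named, per the submitters' processing notes. Not given in the sources used here: aligner, versions, annotation, and how fragments of near-identical genes were divided. In all, 14 values of 10 genes stand at 999999999 and were taken as missing, and those genes were left out of fits. Groups and replicate numbers come from the titles.

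From these values limma 3.58.1 (R 4.3.3, mean-variance trend, two-sided) was fitted on log2(FPKM + 0.5) for the 11357 genes with at least 1 FPKM in at least 5 libraries, with 8 residual and 4.83 prior degrees of freedom. P-values were adjusted over all these genes (Benjamini-Hochberg, threshold 0.05). The script was tested on simulated data. Members and lists were chosen with earlier results of these data known, so their counts and medians are descriptions and no list was tested. All members are named. Of other lists, the text names the called genes with the smallest adjusted p, up to 8 of myeloid genes and up to 4 of others. Of the myeloid genes so chosen, 1 is not reported here. Same-numbered libraries did not deviate together in every pair, so the numbers were not treated as pairs. Synonyms came from a RefSeq gene table of GRCg7b, without coordinates. Figures used matplotlib 3.10.9. Alternatives were other pseudocounts, filters, scalings, weights, a replicate block, no trend, and each library left out.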

Additional observations from a re-analysis of the deposited data

Results flagged for a closer look

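In 3 of the 58 sets of 5 values checked (29 members, 2 groups), 1 library lay far from the others by Dixon's criterion, which chance alone gives in about 1 of 20 sets. LAPTM5 was at 71.9 FPKM in control replicate 8 and at 40.95 to 46.05 FPKM in the other controls. Without that library its log2 fold change was -0.70 (adjusted p = 0.0812 in limma), against -0.85 with it. CD83 was at 2.245 FPKM in the same library and at 0.941 to 1.26 FPKM in the other controls, and its log2 fold change was 0.15 without it. DOCK2 was at 0.304 FPKM in PAPA-NONOate replicate 5 and at 0.0932 to 0.142 FPKM in the other treated libraries, still below the lowest control at 0.372 FPKM.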

How the results depend on the processing

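Across 23 alternatives the number of members called lower was 5 to 10 and none was called higher in any. PTPRC, SPI1, LCP1, CYBB and PTPN6 kept their calls wherever they could be tested. LAPTM5, CD80 and MARCO lost theirs in 10, 7 and 3 alternatives. The filter at 5 FPKM was passed by PTPRC and CD80 through the controls alone, with treated libraries up to 4.003 and 4.82 FPKM. With each library left out in turn, members called lower numbered 5 to 9, genes called lower 429 to 1580 and genes called higher 158 to 254. Genes called lower numbered 449 with a filter at 5 FPKM and 1424 with library weights. Genes called higher numbered 383 with library weights, 798 after median-ratio scaling and 714 after quantile normalization. They numbered 939 with the replicate block and median-ratio scaling. In alternatives added after the data were seen they numbered 804 (replicate block and quantile normalization), 699 and 903 (median-ratio scaling without PAPA-NONOate replicate 2 or 5). With the replicate number as a block 8 members were called lower, the same 8. The correlations of same-numbered libraries were 0.00, 0.29, 0.30, -0.02 and 0.19 for replicates 2, 3, 4, 5 and 8, and treated libraries 2 and 5 correlated more with a control of another number (0.14 and 0.34). CSF1R had an adjusted p of 0.0522 with the block alone and passed with the block and median-ratio scaling (0.0409).

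Log2 fold changes of 6 members that were not called changed sign, all without passing. With each library left out in turn, CYBA ranged from -0.2691 to 0.0718, NCF4 from -0.4554 to 0.0093 and CD83 from -0.0786 to 0.162, with CYBA above 0 without PAPA-NONOate replicate 2, NCF4 without PAPA-NONOate replicate 5, and CD83 without PAPA-NONOate replicate 3 or control replicate 8 (0.154). After median-ratio scaling CYBA was at 0.0574 and CD83 at 0.1326, with or without the replicate block. Library weights gave CYBA 0.0622. After quantile normalization CYBA was at 6e-04, NCF4 at 0.0691, CD83 at 0.219 and PLCG2 at 0.01, also with or without the block. After median-ratio scaling and without PAPA-NONOate replicate 2, CYBA was at 0.1856, CTSS at 0.0291 and CD83 at 0.0267. Without replicate 5 in its place, CYBA was at 0.0553, NCF4 at 0.2095, LYN at 0.0156 and CD83 at 0.1522. The cause was not tested. Not run were the planned choice among rows of 1 name, since each member had 1 row, and the planned search of promoters. FPKM carry no depth, so that precision for the weakly expressed members is unknown.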
